A study of Mus musculus with 2 samples.

Results

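The genes described here are 9 genes of iron uptake, storage, export and iron-sulfur chemistry, chosen by name and joined by gene identifier across the deposited tables. All 9 were found, out of 55536 mouse genes. Total RNA was sequenced from heart tissue of 2 B6CASTF1/J males, adults of 8 to 10 months, hybrids of B6 and Cast parents. The labels call the animals 2 and 4, here replicate 1 and replicate 2, but give both the same donor entry. No other genotype, treatment or age was analysed here, so levels are described and the 2 animals are set side by side, without a p-value. If the libraries are not separate animals, the spread between them is technical.

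Cells take up transferrin-bound iron through the transferrin receptor, move it out of endosomes through a metal transporter, store the surplus inside ferritin shells and release it through ferroportin, which the hormone hepcidin removes from the membrane. Much of the iron that heart muscle uses goes into heme and into iron-sulfur clusters, which are built in mitochondria on a scaffold protein and carry electrons in the respiratory chain. When iron is scarce, the iron regulatory proteins bind a hairpin in mRNAs, the iron-responsive element, and block translation from the 5′ UTR or stabilize the mRNA from the 3′ UTR.

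Because that hairpin links most of these genes, its letters were looked for in all GENCODE M21 transcripts, on the sense strand alone since the element acts in RNA. The pattern was a C, then 5 bases, then CAGTGN, then 5 bases that pair with the first 5 (A-T, G-C or G-T), 17 bases in all. Capitals mark the loop. The stretches below are shown because they are what the storage, export and uptake genes have in common, and because the transcript forms described further on differ in whether they hold one. Each lies within a single exon, and coordinates are on mm10.
Fth1, 5′ UTR, exon 1, chr19:9982738-9982754, plus strand: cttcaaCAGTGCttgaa
Ftl1, 5′ UTR, exon 1, chr7:45459785-45459801, minus strand: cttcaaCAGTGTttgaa
Slc40a1, 5′ UTR, exon 1, chr1:45925471-45925487, minus strand: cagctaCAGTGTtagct
Tfrc, 3′ UTR, exon 19, chr16:32631225-32631241, plus strand: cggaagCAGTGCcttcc
Tfrc, 3′ UTR, exon 19, chr16:32631604-32631620, plus strand: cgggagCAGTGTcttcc
Tfrc, 3′ UTR, exon 19, chr16:32631669-32631685, plus strand: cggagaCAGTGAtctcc
Tfrc, 3′ UTR, exon 19, chr16:32631716-32631732, plus strand: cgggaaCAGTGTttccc
Slc11a2, 3′ UTR, exon 16, chr15:100395158-100395175, minus strand: cagagcCAGTGTgtttct

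The Slc11a2 stretch was found only after 1 unpaired base was allowed on the 3′ side of the stem, a change made after the first search. The wider search also matched Slc40a1-204, a transcript with no annotated coding sequence, in exon 4 at chr1:45919019-45919036 on the minus strand. In the 5′ UTR the stretch is rare: 31 of 21901 protein-coding genes hold one there (0.142%), and 129 hold one in the 3′ UTR (0.589%). With the unpaired base allowed, 415 genes hold one in the 3′ UTR (1.90%), so the match in Slc11a2 stands against a wider background than the others. In the leading transcripts it starts at nucleotide 93 of Fth1, 84 of Ftl1 and 96 of Slc40a1, close to the start of each. No annotated coding transcript of Aco1, Ireb2, Iscu or Hamp held the stretch under either form of the search. A match describes letters and is not a measured binding site.

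**Figure D1:**
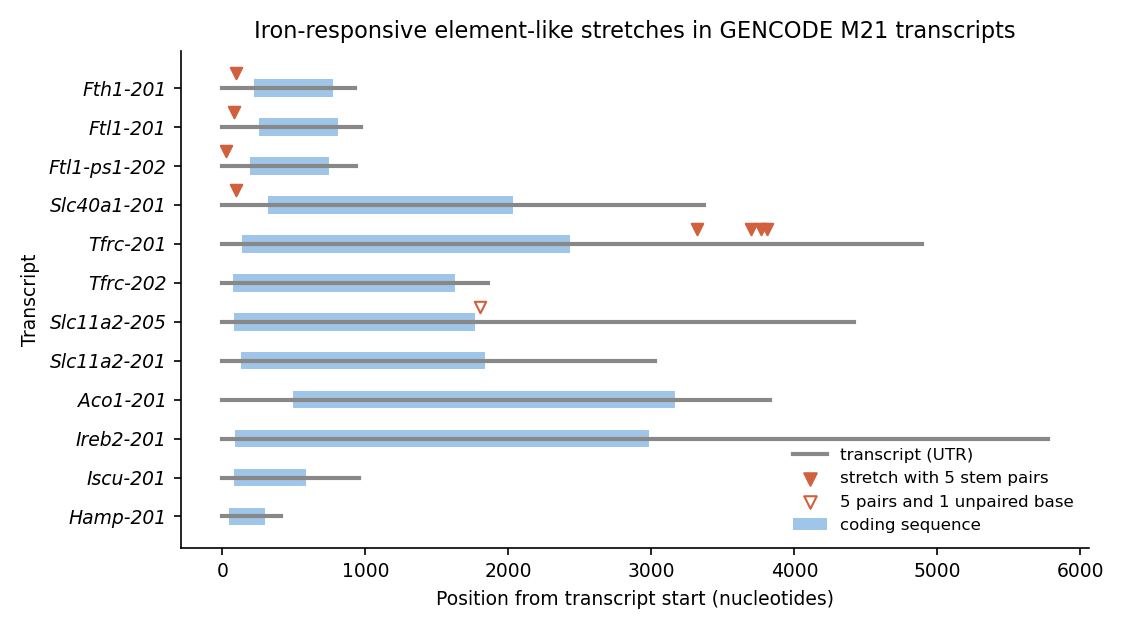
Transcripts of the iron genes and of Ftl1-ps1 drawn to scale, with the position from the transcript start in nucleotides on the x axis. Grey lines are transcripts, blue bars the coding sequence and triangles the iron-responsive element-like stretches. The leading transcripts of Fth1, Ftl1 and Slc40a1 and a transcript of Ftl1-ps1 hold 1 stretch before the coding sequence, Tfrc-201 holds 4 after it, and 1 of the 2 Slc11a2 transcripts holds 1 after it (open triangle, with 1 unpaired base).

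Expected counts on mouse genes came to 42.05 M in replicate 1 and 39.98 M in replicate 2. Levels are in TPM, which corrects for transcript length and sums to a fixed total per library, and ± is the SD over the 2 libraries (n = 2). The defining markers of heart muscle were high in both: the 6 markers had a median of 3327 ± 188 TPM. The libraries differed in some markers of other cells: 7 erythroid markers summed to 11662 TPM in replicate 1 and 6319 in replicate 2. Of 4 lung epithelium markers, Bpifa1 (19.6 TPM) and Scgb1a1 (15.6 TPM) were read in replicate 1 and listed at 0 in replicate 2. The others were near 0 in both libraries, with Sftpb at 0.08 and 0 TPM and Sftpc at 0 and 0. All 9 iron genes reached at least 1 TPM in both libraries, as did 48.9% of 22015 nuclear protein-coding genes. The members' levels spanned from 5.58 to 999 TPM, and Fth1 alone held 80.8% of their summed TPM in replicate 1 and 82.0% in replicate 2.

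Of the storage genes, Fth1 was the highest of the 9 in both libraries and both quantifications. Fth1 (ENSMUSG00000024661.7, chromosome 19, 9980598 to 9985098) encodes the ferritin heavy chain, which oxidizes iron as it enters the shell. It stood at 966 TPM in replicate 1 and 1032 TPM in replicate 2, a mean of 999 ± 47.0 TPM and rank 34 among nuclear protein-coding genes. A second deposited quantification, in the column layout of kallisto, gave 951 and 914 TPM, so the animal with the higher TPM differed between the quantifications. Counts scaled between the libraries were even, with a log2 ratio of replicate 2 over replicate 1 of -0.0010 (95% counting interval -0.026 to 0.024).

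Ftl1 (ENSMUSG00000050708.16, chromosome 7, 45457944 to 45459884) encodes the ferritin light chain, which helps the iron core form. Its level was 84.8 TPM in replicate 1 and 73.3 TPM in replicate 2, a mean of 79.1 ± 8.10 TPM. In both quantifications replicate 1 was the higher, with a log2 ratio of -0.27 from the RSEM-layout counts and -0.27 from the second. Within a library Fth1 exceeded Ftl1 by 11.4-fold in replicate 1 and 14.1-fold in replicate 2, a mean log2 ratio of 3.66 ± 0.22.

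That gap depends on how reads were divided between Ftl1 and its copies. Of the 31-mers of the leading Ftl1 transcript, 85.4% also occur in other genes, and 80.6% occur in Ftl1-ps1, a gene on chromosome 13 annotated as protein-coding. Ftl1-ps1 carries the same stretch as Ftl1 in its annotated 5′ UTR, at chr13:74406434-74406450 on the plus strand. It was assigned more counts than Ftl1 itself, 2897 against 2495 in replicate 1 and 2428 against 1989 in replicate 2, and stood at 93.8 ± 7.86 TPM. Ftl2-ps, another copy, held 169 and 127 expected counts, but 4.33 and 1.42 in the second quantification.

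Summed over Ftl1 and the 5 genes that hold 10% or more of its 31-mers, the light chain family reached 183 ± 17.7 TPM, against 179 ± 24.0 in the second quantification. Ftl1 itself was given 43.4% of that in replicate 1 and 43.1% in replicate 2. With the copies included on both sides, the heavy to light ratio fell to 4.95-fold in replicate 1 and 6.07-fold in replicate 2. Fth1 was little touched, since 12.9% of the 31-mers of its leading transcript occur elsewhere, and Gm6977, which shares most of them, stood at 1.09 ± 0.12 TPM. The light chain level thus moved more with this choice than between the animals, while the heavy chain was the higher under either sum.

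Uptake genes stood far lower. Slc11a2 (ENSMUSG00000023030.16, chromosome 15, 100387898 to 100425072) encodes the divalent metal transporter that carries iron out of endosomes. It was at 21.4 TPM in replicate 1 and 19.2 TPM in replicate 2, a mean of 20.3 ± 1.53 TPM (24.4 ± 1.60 in the second quantification). Tfrc (ENSMUSG00000022797.16, chromosome 16, 32608920 to 32632794) encodes the transferrin receptor. It was at 17.97 TPM in replicate 1 and 15.95 TPM in replicate 2, a mean of 16.96 ± 1.43 TPM (13.5 ± 1.37 in the second quantification). The values of Slc11a2 and Tfrc did not overlap, and Slc11a2 was the higher in both libraries and both quantifications.

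The order of these genes turned in expected counts, which carry no length correction. Tfrc took 2481 and 2307 expected counts against 1445 and 1480 for Slc11a2. Counting only transcripts of 400 nucleotides or more, a choice made after seeing the data, Slc11a2 was at 12.6 TPM in replicate 1 and 18.7 TPM in replicate 2, and Tfrc at 17.5 and 15.9. Slc11a2 was then below Tfrc in replicate 1 and above it in replicate 2, so their order was not the same under every treatment of the values tried.

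Slc40a1 (ENSMUSG00000025993.10, chromosome 1, 45908068 to 45926523) encodes ferroportin, the exporter of iron. Its level was 10.1 TPM in replicate 1 and 12.5 TPM in replicate 2, a mean of 11.3 ± 1.70 TPM, against 7.71 ± 0.828 in the second quantification. It had the widest difference between the animals among the 8 members with 200 or more summed counts, at a log2 ratio of 0.30 (95% counting interval 0.17 to 0.43), or 1.23-fold. Ferroportin is abundant in macrophages that recycle iron. All 8 macrophage markers reached 1 TPM in both libraries, and their summed level was 131 TPM in replicate 1 and 73.3 in replicate 2, a gap that lay almost wholly on Lyz2 (88.2 and 29.2 TPM). The single markers went both ways. Mrc1 (3.24 and 4.23 TPM, log2 ratio 0.37) and C1qa (8.22 and 10.1 TPM, log2 ratio 0.26) were higher in replicate 2, as Slc40a1 was, with 95% counting intervals above 0. Adgre1 (5.73 and 3.45 TPM) was higher in replicate 1, and the intervals of C1qb, Csf1r, Cd163 and Cd68 included 0. Their part in the Slc40a1 difference was not tested. In whole tissue, fewer cells of a type and less RNA per cell cannot be told apart.

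The iron regulatory proteins that read the hairpin were both expressed. Aco1 (ENSMUSG00000028405.9, chromosome 4, 40143081 to 40198338) encodes the cytosolic aconitase that turns into an RNA-binding protein when it loses its iron-sulfur cluster. It was at 9.19 TPM in replicate 1 and 10.8 TPM in replicate 2, but at 9.41 and 9.35 TPM in the second quantification. Its scaled counts were higher in replicate 2 in both quantifications, at log2 ratios of 0.17 and 0.19. Ireb2 (ENSMUSG00000032293.8, chromosome 9, 54863789 to 54912530) encodes the regulatory protein that is degraded when iron is plentiful. It was at 7.81 TPM in replicate 1 and 8.71 TPM in replicate 2.

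Within a library Aco1 exceeded Ireb2 by 1.18-fold in replicate 1 and 1.24-fold in replicate 2, a mean log2 ratio of 0.27 ± 0.05. In the second quantification the mean log2 ratio was 0.38. Expected counts carry no length correction and gave -0.34. The leading Ireb2 transcript has 5770 nucleotides and that of Aco1 has 3832. None of the 31-mers of the leading Aco1 and Ireb2 transcripts occurs in another gene.

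Iscu (ENSMUSG00000025825.12, chromosome 5, 113772748 to 113778288) encodes the scaffold on which iron-sulfur clusters are first assembled. Its level was 74.6 TPM in replicate 1 and 77.4 TPM in replicate 2, a mean of 75.98 ± 1.99 TPM, close to that of Ftl1 alone. The range of Iscu lay within that of Ftl1, and the order of the 2 genes turned in the second quantification, where Iscu was at 81.1 ± 4.03 and Ftl1 at 75.7 ± 10.2 TPM. In that quantification Iscu was higher in replicate 1, at 84.0 TPM against 78.3 in replicate 2. Of the 31-mers of Iscu-201, 32.6% occur in the gene Gm16437, which took 0 and 2.52 counts.

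Hamp (ENSMUSG00000050440.8, chromosome 7, 30942368 to 30944032) encodes hepcidin, a hormone made mainly by the liver and also known from heart muscle. It was the lowest of the 9 and the one that differed most between the animals, with 3.25 TPM in replicate 1 and 7.91 TPM in replicate 2 (5.58 ± 3.30). The authors' credibility intervals in the deposited tables ran from 2.24 to 4.40 TPM and from 6.12 to 9.58 TPM and did not overlap. This did not set Hamp apart. The intervals of Fth1, Ftl1 and Aco1 did not overlap between the libraries either, although the scaled counts of Fth1 were even. The share of all genes with such intervals is not given here. The second quantification gave 3.73 and 7.44 TPM. These levels rest on 35.1 and 80.6 expected counts, or 27 and 51 estimated counts in the second quantification.

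Replicate 2 was 2.40-fold higher in scaled counts (95% counting interval 1.60 to 3.68) and 1.97-fold higher in the second quantification. Hamp shares 33.7% of the 31-mers of Hamp-201 with its neighbour and near copy Hamp2, which held 27.9 and 23.5 expected counts but 3 and 3 in the second quantification. Summed over both genes, the difference was 1.71-fold. Of 7 hepatocyte markers 1, Ahsg, reached 1 TPM in both libraries, their summed level was 3.48 TPM in replicate 1 and 2.68 in replicate 2, Apoa1 and Fgb were listed at 0 in both, and Alb was at 0 and 0.02 TPM.

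**Figure D2:**
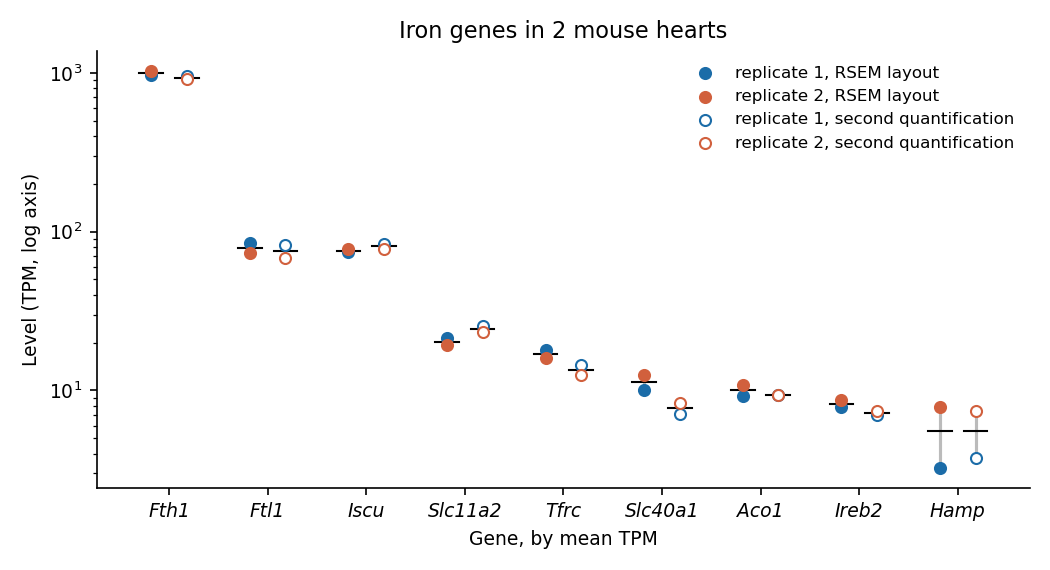
Level in TPM (log axis) of each iron gene in the 2 hearts, with genes ordered by mean TPM. Filled points are the RSEM-layout values, open points the second quantification, and short lines the mean of the 2 libraries. The mean TPM of Fth1 is 12.6 times that of Ftl1, Ftl1 and Iscu overlap, and the points of Hamp lie the farthest apart, at 3.25 and 7.91 TPM.

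In descending order of mean TPM the 9 genes were Fth1, Ftl1, Iscu, Slc11a2, Tfrc, Slc40a1, Aco1, Ireb2 and Hamp. The values of 3 pairs of neighbours in that order overlapped between libraries, namely Ftl1 with Iscu, Slc40a1 with Aco1, and Ireb2 with Hamp. The order of the first 2 of these pairs turned in the second quantification. With 2 libraries, no likeness of pattern with other genes was computed.

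Between the animals the iron genes were about as close as other genes. A gene was counted as differing when it had at least 200 counts over both libraries, a scaled ratio of 2-fold or more, and an exact counting interval, at an error rate of 0.001, that left out an even ratio. By that rule 1.08% of 10960 genes differed (0.858% higher in replicate 1 and 0.219% higher in replicate 2), and 0 of the 8 members with enough counts did. In the second quantification 1.06% of genes differed, and again 0 members. The members' median absolute log2 ratio was 0.12, against 0.11 over all genes tested. At a ratio of 1.5-fold 3.53% of genes were counted and still 0 of the 8 members. Hamp, with 116 summed counts, was outside the rule. With a minimum of 50 counts it was the 1 member counted, higher in replicate 2, against 2.31% of 13571 genes in either direction and 0.494% in that direction. Its difference in the second quantification was under 2-fold. The counting interval there, at the same error rate of 0.001, ran from a log2 ratio of -0.16 to 2.21 and included an even ratio. Counting intervals cover counting error only and leave out variation between animals.

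**Figure D3:**
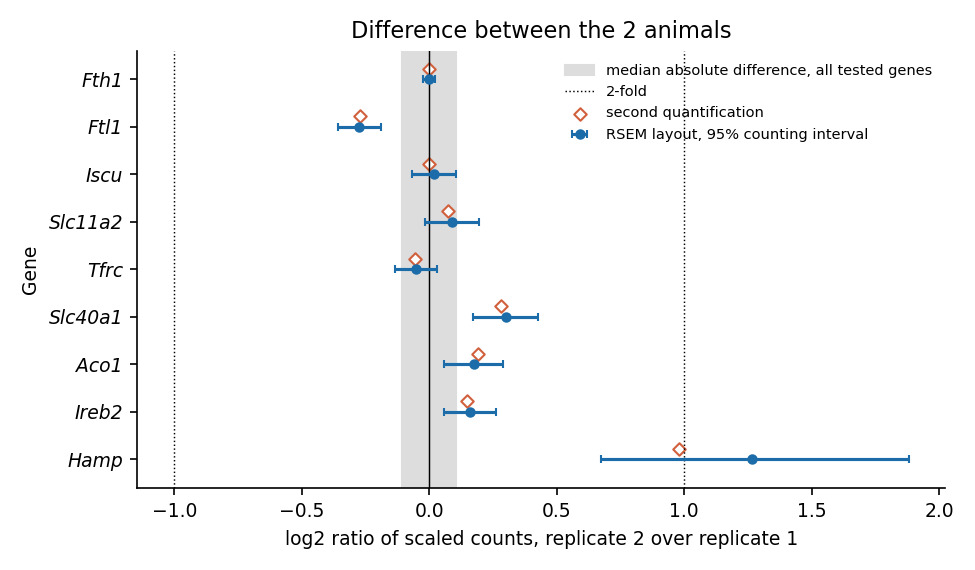
Log2 ratio of scaled counts in replicate 2 over replicate 1 for each iron gene. Circles with bars are the RSEM-layout ratios with 95% counting intervals, diamonds the second quantification, the grey band the median absolute difference over all tested genes (0.11) and dotted lines a 2-fold difference. The genes other than Hamp lie between -0.27 and 0.30, and Hamp lies at 1.26.

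The annotated transcripts of a gene can differ in whether they carry the hairpin. For Slc11a2 this is a known choice between mRNAs with different ends. The longer form, of 4415 nucleotides and 16 exons, holds the stretch in its last exon, and the shorter form, of 3025 nucleotides and 17 exons, lacks it. The longer form was at 5.61 TPM in replicate 1 and 5.54 TPM in replicate 2, and the shorter form at 4.54 and 5.62 TPM. Their log2 ratio, longer over shorter, was 0.31 in replicate 1 and -0.02 in replicate 2, so the order differed between the animals. The second quantification placed the longer form ahead in both libraries, at log2 ratios of 0.52 and 0.18. Expected counts, which carry no length correction, were also higher on the longer form in both libraries, at log2 ratios of 0.87 and 0.54. Both forms were thus at similar levels in the RSEM-layout TPM, where neither led in both animals. By the other measures the longer form led in both.

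Other Slc11a2 transcripts differed widely between the libraries. A coding fragment of 389 nucleotides was at 5.33 TPM in replicate 1 and 0.58 TPM in replicate 2, on 53.6 and 5.47 counts. Another coding transcript, of 709 nucleotides, was at 0 and 4.79 TPM. The form with the stretch had 26.2% of the TPM of Slc11a2 in replicate 1 and 28.8% in replicate 2, but 58.3% and 53.0% of its counts.

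In the other genes most RNA was assigned to transcripts that hold the stretch. For Tfrc the share of TPM was 75.2% in replicate 1 and 88.3% in replicate 2, and 90.5% and 99.0% in the second quantification. The remainder was mainly Tfrc-202, which has 13 exons where Tfrc-201 has 19, holds no stretch, and had 20.01% of the gene's TPM in replicate 1 and 9.05% in replicate 2. For Slc40a1 the share was 77.5% and 78.0%, and 100% in both libraries in the second quantification. Most of the rest of Slc40a1 sat on 2 short transcripts, of which the one of 263 nucleotides held 12.9 and 6.77 counts.

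For Ftl1 the share was 93.3% in replicate 1 and 89.5% in replicate 2. For Fth1 it was 88.9% in replicate 1 and 83.0% in replicate 2, against 99.91% and 99.93% in the second quantification. The remainder of Fth1 lay mostly on a coding transcript of 333 nucleotides without the stretch, at 101 and 167 TPM in the RSEM-layout table and 0 in the second quantification. Over transcripts of 400 nucleotides or more Fth1 was at 865 ± 0.445 TPM, so the gap between the animals in its RSEM-layout TPM lay on that short transcript. The leading transcript of Fth1 was at 858 and 857 TPM.

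Iscu-201 held 97.5 ± 0.530% of Iscu, and 82.4% in the second quantification, which placed 15.7% on Iscu-205, a transcript annotated for nonsense-mediated decay that was at 0 in the RSEM-layout table. The leading transcripts of Aco1 and Ireb2 held 97.8 ± 1.53% and 98.3 ± 1.89% of their genes. The leading transcript by mean share was the same in both quantifications for all 9 genes.

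**Figure D4:**
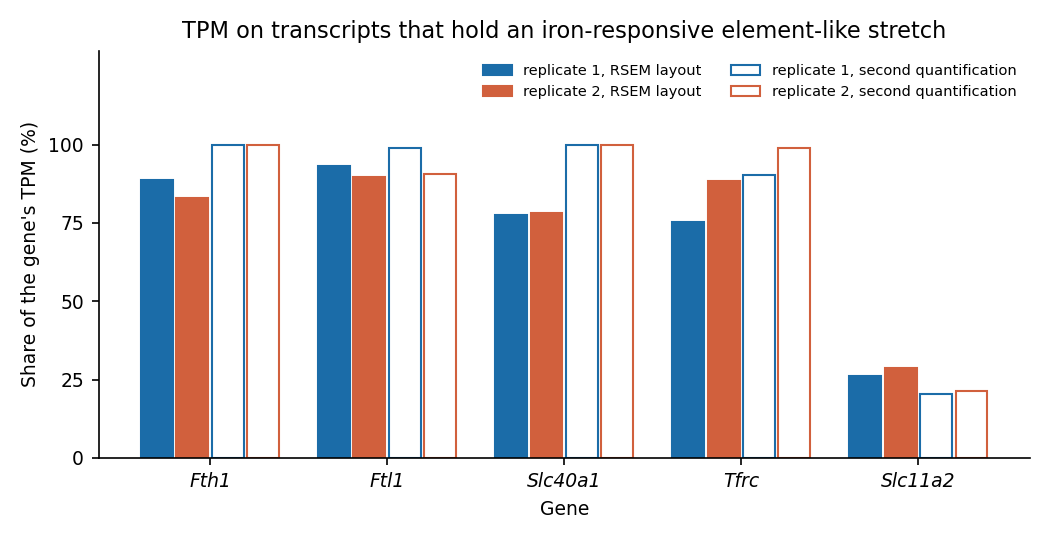
Share of each gene's TPM (percent) on transcripts that hold an iron-responsive element-like stretch, in each library and quantification. Bars start at 0, filled bars are the RSEM-layout values and open bars the second quantification. Slc11a2 stands at 20.5 to 28.8%, and the other 4 genes at 75.2% or more.

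The wider iron pathway was then described with 8 lists of genes. Together they held 111 genes beside the 9, of which 96 (86.5%) reached 1 TPM in both libraries. Of the 96 with enough counts 1 differed between the animals (1.04%, against 1.08% of all genes). That gene was Trf, which encodes the plasma iron carrier transferrin, at 19.5 TPM in replicate 1 and 11.1 TPM in replicate 2, 2.02-fold in scaled counts and 2.19-fold in the second quantification. Some markers of other cells were also higher in replicate 1. Of 7 erythroid markers 5 reached 1 TPM in both libraries, none was at 0 in either, and the 5 with enough counts were all higher in replicate 1 by over 1.5-fold. The hepatocyte markers summed to 3.48 and 2.68 TPM. Among them Ahsg (2.38 and 1.41 TPM) was higher in replicate 1 and Apoa2 (0.72 and 0.94 TPM) higher in replicate 2. Of the lung epithelium markers, Bpifa1 and Scgb1a1 were read in replicate 1, while Sftpb and Sftpc were near 0 in both libraries. Fibroblast markers summed to 186 and 196 TPM and endothelial markers to 441 and 430 TPM, and none of either list differed by the rule. Their part in the Trf difference was not tested.

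Of 14 genes of uptake and iron reduction 8 were at 1 TPM or more in each library, and the median of the list was 4.61 ± 0.0636 TPM. The highest were the endocytic receptor Lrp1 (29.7 ± 1.80 TPM), Slc39a14 (24.2 ± 2.14), which imports iron not bound to transferrin, Hfe (23.1 ± 2.31), which binds the transferrin receptor, and Trf (15.3 ± 5.98). Under 1 TPM in both were Cubn, Cybrd1, Steap2, Tfr2 and Steap1. Tfr2, the second transferrin receptor, was at 0.05 and 0.10 TPM, against 16.96 ± 1.43 TPM for Tfrc.

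Among 10 genes of storage, iron chaperones and ferritin turnover, 8 reached 1 TPM in both and the median was 24.6 ± 1.16 TPM. The highest were the iron chaperone genes Pcbp2 (155 ± 3.25 TPM) and Pcbp1 (53.8 ± 1.51), the ubiquitin ligase subunit Skp1a (96.1 ± 3.46) and Ncoa4 (47.3 ± 2.74), the receptor that delivers ferritin to autophagy. Ftmt, mitochondrial ferritin, was listed at 0 in both libraries.

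Of 8 genes of iron export, plasma oxidation and heme handling, 6 reached 1 TPM in both, with a median of 6.52 ± 0.202 TPM. Hmox2 (27.5 ± 0.0919 TPM), the constitutive heme oxygenase, and the heme transporter Slc48a1 (26.6 ± 0.148) were followed by the ferroxidase Cp (11.8 ± 2.11) and the exporter Abcg2 (10.4 ± 0.919). The ferroxidases Heph and Hephl1 were under 1 TPM in both. Of 8 genes of mitochondrial iron import and related transporters 7 reached 1 TPM in both, with Abcb8 at 36.6 ± 4.2 TPM and Abcb10 at 18.2 ± 1.09 TPM.

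Iron-sulfur assembly was expressed throughout. All 19 mitochondrial assembly genes found reached 1 TPM in both libraries, with a median of 16.1 ± 0.403 TPM, well under the 75.98 TPM of Iscu. In the RSEM-layout values 4 genes stood above Iscu, namely Ndufab1 (588 ± 14.8 TPM), an acyl carrier protein that is also a subunit of respiratory complex I, the chaperone gene Hspa9 (208 ± 8.14), Bola3 (122 ± 2.07) and Isca1 (81.6 ± 0.488). The order of Isca1 and Iscu turned in the second quantification, where Isca1 was at 68.2 ± 3.90 TPM and Iscu at 81.1 ± 4.03. Nfs1, the cysteine desulfurase that supplies the sulfur, and Lyrm4, which stabilizes it, were named for their role after their values were seen. Nfs1 was at 39.6 ± 3.18 TPM and Lyrm4 at 4.11 ± 0.12, both below Iscu, while Ndufab1, which binds the same complex, was above it.

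All 12 genes found of the cytosolic assembly list also passed, with a median of 20.9 ± 0.428 TPM. The highest value there was that of Cisd1 (127 ± 9.02 TPM), which is also in the list of iron-sulfur proteins and does not stand for assembly alone. Next came Glrx3 (50.6 ± 2.02), Ciapin1 (30.9 ± 1.61) and Ciao2a (25.8 ± 0.898). The 20 genes of proteins that carry or insert iron-sulfur clusters had the highest list median, 148 ± 4.95 TPM, and all passed. Among the highest were Sdhb (463 ± 18 TPM), a subunit of succinate dehydrogenase, and Ndufv2 (437 ± 21.8), a subunit of respiratory complex I. The assembly lists and this list of client genes, which shares Cisd1 with the cytosolic one, differ in level by list median. No test of that difference was made.

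Genes that regulate hepcidin were mostly read although Hamp itself was low. Of 24 found, 19 were at 1 TPM or more in each library, and their list had a median of 6.75 ± 0.279 TPM. In the second quantification 18 were. The list also holds Hamp2, the near copy of Hamp, at 2.51 and 2.23 TPM but 0.40 and 0.41 TPM in the second quantification. Hfe2, which encodes hemojuvelin, a BMP co-receptor of striated muscle and liver, was the highest at 123 ± 10.8 TPM, followed by the protease gene Furin (33.7 ± 0.311), Stat3 (33.01 ± 0.467) and Hfe. Under 1 TPM in both were Bmp2, Il6, Tfr2, Erfe and Tmprss6, of which Tmprss6, the liver protease that cleaves hemojuvelin, was at 0 and 0.01 TPM.

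**Figure D5:**
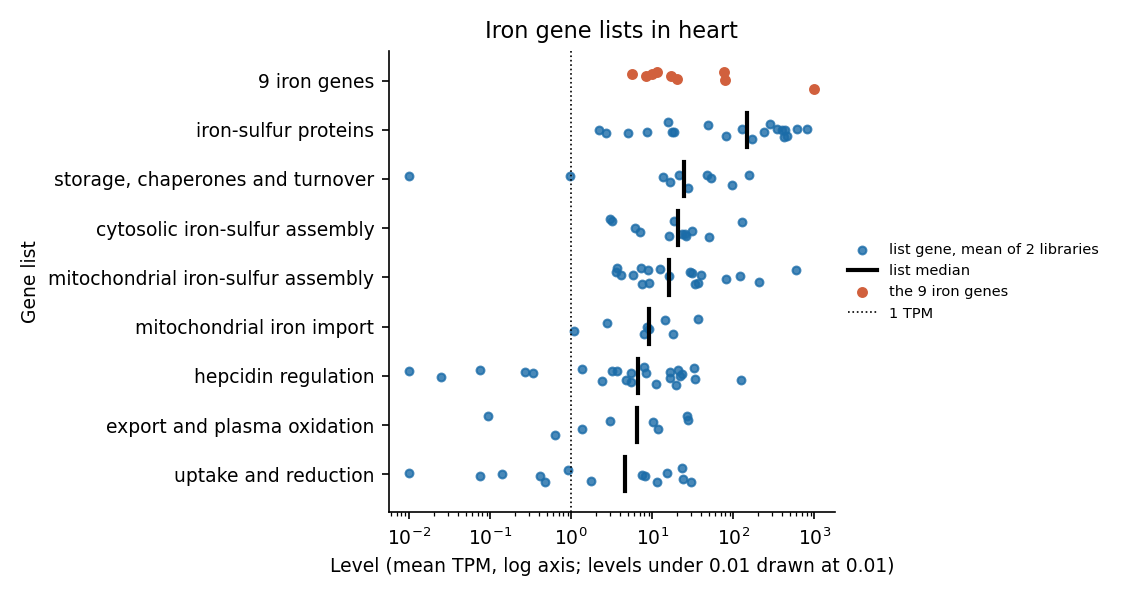
Mean TPM over the 2 libraries (log axis) of each gene in the 8 iron lists and of the 9 iron genes. Blue points are list genes, black lines list medians, orange points the 9 iron genes and the dotted line 1 TPM, and levels under 0.01 are drawn at 0.01. The genes of iron-sulfur proteins have the highest median, at 148 TPM, and the uptake list the lowest, at 4.61 TPM.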

How the data were processed

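Total RNA of 2 hearts was sequenced after ribosomal RNA reduction, from 300 ng per library, per the labels. The authors deposited expected counts (not whole numbers), TPM, FPKM (not used) and percent isoform shares in the RSEM column layout, and estimated counts and TPM in the kallisto layout, per the file headers. The deposited credibility bounds of TPM are signal-like values in TPM units whose level is not stated. The deposited file listings name mm10 and GENCODE M21. For the aligner and tool versions: not given in the sources used here. How CAST reads fared against mm10 was not analysed here.

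Expected counts were rounded and scaled by TMM in edgeR 4.0.16 (R 4.3.3), with DESeq2 1.42.0 size factors as an alternative. Exact Clopper-Pearson counting intervals came from scipy 1.17.1. Other alternatives were levels rescaled to protein-coding genes or taken per kilobase, total and spike-in scaling, a minimum of 50 counts, a 1.5-fold rule, a pseudocount of 1, the second quantification and leaving out a library. Sequences came from GENCODE M21 transcripts. Counts of 10960 genes were simulated with the same coefficient of variation, 0.12, for every gene. On these the differing rule called 49 of 50 genes changed 3-fold, 17 of 50 changed 2-fold and 3 of 10760 unchanged genes. The spread between real animals can vary by gene, so these are not error rates for the 2 hearts. The members and gene lists were chosen with earlier results of these data known. All 9 members are named, with the 4 highest genes of each list, genes that differ, and up to 5 under 1 TPM, apart from a few results not reported here. The marker Ahsp was not matched. A planned comparison of proteins was not made.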

Additional observations from a re-analysis of the deposited data

How the results depend on the processing

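No paired analysis was possible because the series has a single group of 2 libraries. The number of genes differing between the animals, 118 of all genes tested, was 314 with a minimum of 50 counts, 387 at 1.5-fold and 116 with DESeq2 size factors. It was 1 in place of 0 for the 9 iron genes with 50 counts, and 3 in place of 1 for the iron lists at 1.5-fold. Those 3 were 3.1% of the 96 list genes with enough counts, against 3.53% of all genes. Rescaling TPM to its usual total over nuclear protein-coding genes alone raised all 9 levels, to 2757 for Fth1, 218 for Ftl1, 209.7 for Iscu, 56.1 for Slc11a2, 46.9 for Tfrc, 31.2 for Slc40a1, 27.6 for Aco1, 22.8 for Ireb2 and 15.3 for Hamp. In the second quantification levels moved by more than 1 SD to 932 TPM for Fth1, 13.5 for Tfrc, 7.71 for Slc40a1, 24.4 for Slc11a2, 7.23 for Ireb2 and 81.1 for Iscu. Counts per kilobase, rescaled to the same total as TPM, gave 19.4 for Tfrc, 22.8 for Slc11a2, 9.53 for Ireb2, 11.4 for Aco1 and 79.9 for Iscu. Transcripts of 400 nucleotides or more gave 865 TPM for Fth1 and 15.6 for Slc11a2, and the sum over the Ftl1 family gave 183 TPM. The log2 ratio of Fth1 between the animals was -0.049 with spike-in scaling. With log2(TPM + 1) the ratio was 0.096 for Fth1, -0.16 for Tfrc and -0.15 for Slc11a2. From scaled counts these were -0.0010, -0.051 and 0.088, so the sign turned for Fth1 and Slc11a2. Spike-in scaling shifted every ratio by -0.048, DESeq2 by -0.013 and total counts by 0.019. Within a library, the log2 ratio of Fth1 over Ftl1 was 2.45 with the genes that share sequence. Aco1 over Ireb2 was 0.38 in the second quantification and reversed to -0.34 from expected counts. Tfrc over Slc11a2 was -0.85 in the second quantification, -0.25 with a pseudocount of 1, and reversed to 0.71 from expected counts, which carry no length correction. List medians in the second quantification were 3.99 TPM for uptake, 29.3 for storage, 6.29 for export, 17.6 for mitochondrial assembly, 24.4 for cytosolic assembly and 138 for iron-sulfur proteins. Shares of the leading transcript there were 94.9% for Aco1, 97.1% for Fth1, 82.4% for Iscu, 20.99% for Slc11a2, 97.1% for Slc40a1 and 94.6% for Tfrc. The causes of these changes were not tested.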

Other observations

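Genes of the iron lists that passed 1.5-fold without passing 2-fold were looked at after their values were seen. At 1.5-fold, 3.1% of the list genes with enough counts were counted, Trf among them, against 3.53% of all genes. Slc25a37, which encodes the iron importer mitoferrin of red blood cell precursors, was at 9.65 TPM in replicate 1 and 6.01 TPM in replicate 2, or 1.58-fold in scaled counts and 1.53-fold in the second quantification. Il6ra, a receptor subunit for interleukin 6, was at 1.5 and 1.21 TPM, or 1.52-fold in scaled counts. In the second quantification its difference was 1.495-fold, under the 1.5-fold limit. Alas2, the heme synthesis enzyme of red blood cell precursors, was at 44.1 TPM in replicate 1 and 24.4 TPM in replicate 2, 1.94-fold, and its mRNA also holds the stretch in its annotated 5′ UTR, at chrX:150547464-150547480. Hbb-bs (4229 and 2272 TPM) and Hba-a1 (3872 and 2119 TPM) were higher in replicate 1 as well. The part of erythroid RNA in the differences of Slc25a37 and Il6ra was not tested.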
